A study of Mus musculus with 6 samples.

Results

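The BCL2 family decides whether a cell keeps its mitochondrial outer membrane intact. BCL2, BCL-xL (gene Bcl2l1) and MCL1 are its anti-apoptotic members. BAX and BAK (genes Bax and Bak1) are the effectors that form pores in that membrane, and the BH3-only proteins BIM (Bcl2l11), PUMA (Bbc3), NOXA (Pmaip1), BMF and BID bind the anti-apoptotic members or activate the effectors. NOXA binds MCL1 preferentially, while BIM and PUMA bind all the anti-apoptotic members. In the skin, BCL2 is known for its level in hair follicle progenitors and in basal cell carcinoma, and MCL1 for a short protein half-life. The 10 genes described here were taken by symbol from the study's table of 23337 genes. All 10 were in it, and all 10 passed the filter on low values (mean normalized count of 10 or more), as did 13671 genes in all. A normalized count is the number of reads of a gene divided by a scaling factor for its library.

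The knockout libraries (n = 3) came from mice that carried R26-SmoM2/+, Yapfl/fl and K14CreER, and the wild-type libraries (n = 3) from mice that carried R26-SmoM2/+ and K14CreER without the floxed Yap allele. SmoM2 is an activated mutant of Smoothened, which relays the Hedgehog signal, K14CreER is a Cre recombinase made in Krt14-expressing keratinocytes and active after tamoxifen, and Yap1 encodes the Hippo pathway co-activator YAP. Mice of both groups carried SmoM2 and received tamoxifen at 4 weeks of age, and basal cell carcinoma cells were taken from ear epidermis. Each library is labelled as 6 weeks after tamoxifen, although the protocol text also names 9 weeks. Deletion was limited to cells in which K14CreER acted, and the labels do not say whether animals were pooled. The comparison asked which transcripts of these Hedgehog-driven tumours differ without Yap.

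Yap1 had 591, 773 and 1764 normalized counts in knockout libraries 1 to 3, against 5765, 6004 and 5573 in wild-type libraries 1 to 3. Transcript thus remained in each knockout library and most in the third. Between same-numbered libraries the log2 differences of Yap1 were −3.28, −2.96 and −1.66, so the loss was smallest between libraries 3. Over the groups the log2 difference of Yap1 was −2.47 in DESeq2, which called it (adjusted p = 1.4e-07). It was −2.63 in limma, which did not call the deleted gene itself (adjusted p = 0.517). The basal keratinocyte markers Krt5 and Trp63 and the Hedgehog targets Gli1 and Ptch1 were high in all 6 libraries (Gli1 13955 to 19838 in knockout and 16931 to 18847 in wild type), and the 5 leukocyte markers summed to 16.9 to 22.8 normalized counts in knockout and 15.1 to 32.5 in wild type. Replicate 3 of each group carries a label code beginning with DM24, and replicates 1 and 2 one beginning with DM22. Xist, transcribed in female cells, had 58654 and 59594 normalized counts in DM24 against 8.62 to 15.1 in DM22, while the Y-linked Ddx3y had 0 in DM24 and 3202 to 3426 in DM22. The DM24 libraries also had fewer reads, 15405490 and 15572640 against 22836259 to 25260431. Sex, depth and whatever else the codes mark cannot be told apart. Summed markers of differentiated keratinocytes (6 genes) reached 103378 normalized counts in knockout library 3, against a highest wild-type value of 45749. Krt1, Krt10 and Krtdap were highest in knockout library 3, Ivl and Sbsn in wild-type library 3. Lor was lowest in knockout library 3. The part of these markers in the results was not tested. In bulk RNA, fewer cells of a type and less RNA per cell cannot be told apart.

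The promoters of Bcl2l11 and Mcl1 are shown because the ratio of these genes, described further on, separated the groups. They are the 250 bases before a RefSeq transcription start (GRCm38.p6, plus strand for both genes), chr2:128125788-128126037 for Bcl2l11 and chr3:95658471-95658720 for Mcl1. Capitals mark GGAATG or its reverse complement CATTCC, the core of the site that TEAD factors, the DNA-binding partners of YAP, are known to recognise.
Bcl2l11: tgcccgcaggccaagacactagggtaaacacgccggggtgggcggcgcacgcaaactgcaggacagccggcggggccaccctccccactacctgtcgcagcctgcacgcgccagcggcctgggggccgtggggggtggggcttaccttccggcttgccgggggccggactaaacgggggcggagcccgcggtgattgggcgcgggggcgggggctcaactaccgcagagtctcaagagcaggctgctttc
Mcl1: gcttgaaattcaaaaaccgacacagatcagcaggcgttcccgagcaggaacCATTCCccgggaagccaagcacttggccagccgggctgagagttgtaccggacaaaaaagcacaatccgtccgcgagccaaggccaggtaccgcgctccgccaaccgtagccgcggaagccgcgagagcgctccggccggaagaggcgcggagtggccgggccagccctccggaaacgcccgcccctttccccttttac
The Mcl1 window held 1 such sequence, 199 bases before the start, and the Bcl2l11 window none. Searched on both strands from 250 bases before to 50 after each RefSeq start, GGAATG was present for 2 members, Mcl1 and Bcl2l1. These were 2 of the 16 windows of the members. Of the 32851 RefSeq windows of the same length 14.7% held it, and 16.6% of the 27025 genes had it in a window. TGANTCA, the AP-1 site, which reads the same on both strands, was in 0 of the 16 windows of the members and in 7.81% of all windows. The windows covered 9 of the 10 genes. A match of letters is a description and not a binding site.

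No member passed the test of knockout against wild type without a further term, and 8 of the 10 had a log2 difference below 0. The test was limma on log2(normalized count + 1), a scale that understates the change of low genes, adjusted by Benjamini-Hochberg over all 13671 genes. Limma and edgeR called 0 members, with 0 at an unadjusted p under 0.05 in either (5.55% and 5.57% of all genes), and both called 0 of all genes (0%). DESeq2 called 0 members as well, with 0 at an unadjusted p under 0.05, against 6.08% of all genes, and called 0.490% of all genes. Absolute log2 differences of at least 0.4 were found for 2 members, Bcl2l11 and Pmaip1, and for 12.9% of all genes. The median log2 difference of the 10 genes was −0.12, against −0.00 over all genes tested, of which 51.0% lay below 0. Groups did not overlap for 1 member, against 11.0% of all genes.

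**Figure D1:**
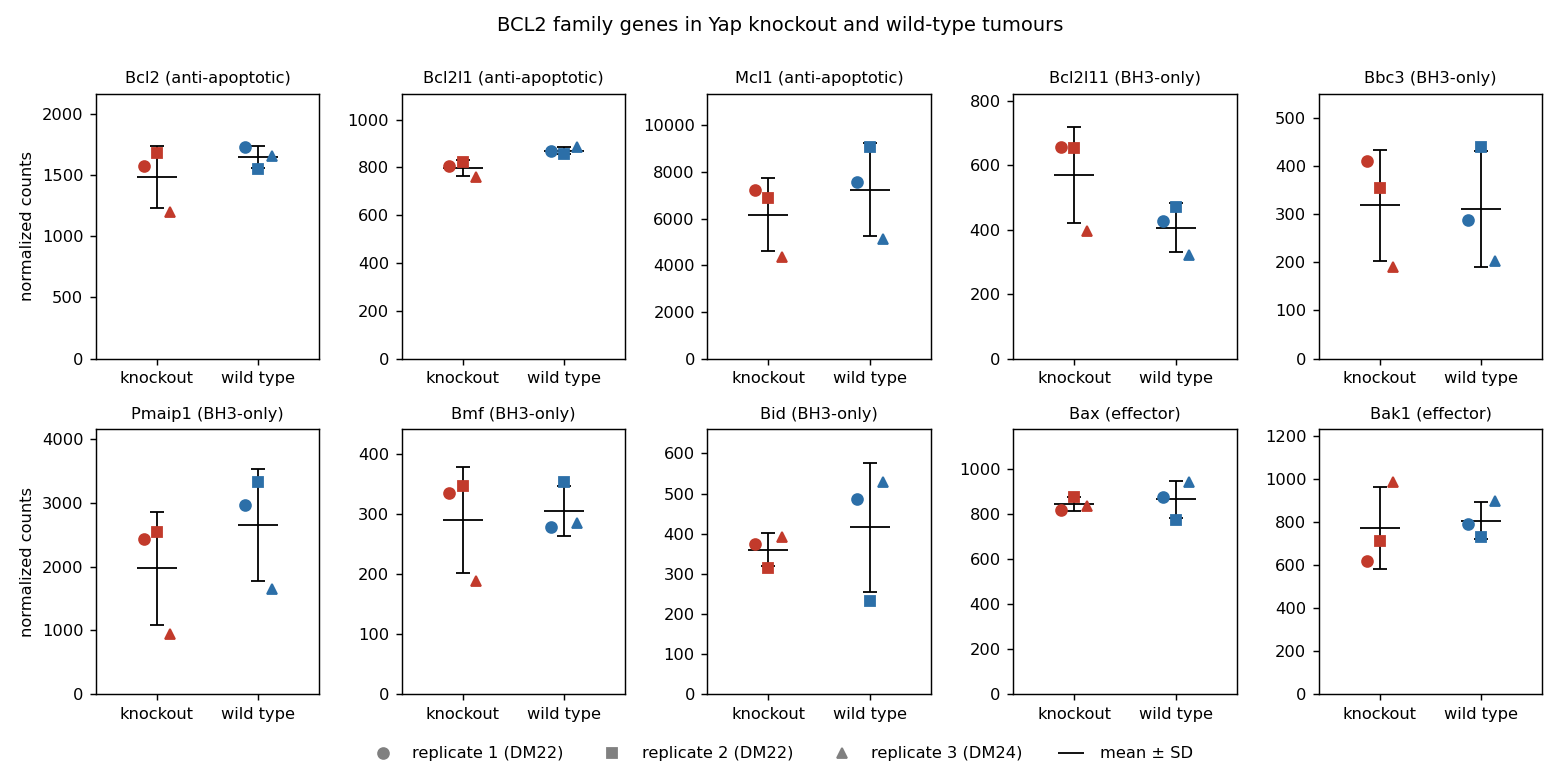
Normalized counts of the 10 genes (y axis of each panel, from 0) in each library of the knockout and wild-type groups (x axis), with the mean and SD of the 3 libraries of a group. Bcl2l1 is the only panel without overlap of the groups, and replicate 3 of both groups is low for Mcl1, Pmaip1, Bcl2l11 and Bbc3.

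Among the anti-apoptotic genes, all 3 had mean levels somewhat lower in the knockout, and none passed limma, edgeR or DESeq2. Mcl1 (chromosome 3, 95658788 to 95663176, plus strand, GENCODE M21 on GRCm38) had 7231, 6874 and 4362 normalized counts in knockout libraries 1 to 3 and 7551, 9072 and 5109 in wild-type libraries 1 to 3. Both replicate 3 libraries were lowest, the groups overlapped, and each knockout library was below the wild-type library of its number. The log2 difference was −0.23 (95% interval −0.90 to 0.44; limma adjusted p = 0.995), and −0.06, −0.40 and −0.23 in pairs 1 to 3. Without knockout library 3, which leaves a DM24 library in the wild type only, it was 0.00064. In the DM22 libraries alone the limma log2 difference was −0.23.

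Bcl2l1, which encodes BCL-xL (chromosome 2, 152780668 to 152831728, minus strand), had 807, 824 and 759 normalized counts in knockout and 869, 857 and 886 in wild type. Every knockout library lay below every wild-type library, by a small margin: the means were 797 ± 34.1 and 871 ± 14.4 (SD, n = 3 each). Its log2 difference was −0.13 ± 0.07 (SE), with a 95% interval of −0.30 to 0.04 (limma adjusted p = 0.933), the tightest interval of the 10. Separation in this direction was also found for 5.87% of all genes. Bcl2 (chromosome 1, 106538178 to 106714274, minus strand) had 1571, 1676 and 1200.0 normalized counts in knockout and 1728, 1551 and 1658 in wild type. Knockout library 3 was the lowest of the 6, and knockout libraries 1 and 2 lay within the wild-type range. The log2 difference of −0.16 (95% interval −0.49 to 0.16; limma adjusted p = 0.987) was −0.02 without knockout library 3. In the DM22 libraries alone it was −0.01.

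The BH3-only genes went in different directions: 2 of the 5 had a log2 difference above 0 and 3 below. Bcl2l11, which encodes BIM (chromosome 2, 128126038 to 128162547, plus strand), had 656, 654 and 396 normalized counts in knockout and 426, 470 and 323 in wild type. It was higher in the knockout in each same-numbered pair, by 0.62, 0.47 and 0.29 on the log2 scale, and only knockout library 3 lay within the wild-type range. The means were 569 ± 150 and 406 ± 75.8 (SD, n = 3 each), and the log2 difference was 0.46 (95% interval −0.13 to 1.06; limma adjusted p = 0.933). It was the only member higher in each of the 3 pairs, as were 15.3% of all genes.

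Pmaip1, which encodes NOXA, a p53 target in many tissues, went the other way. It had 2427, 2546 and 948 normalized counts in knockout and 2966, 3322 and 1652 in wild type. Both replicate 3 libraries were lowest and the groups overlapped, with the knockout lower in each pair by log2 differences of −0.29, −0.38 and −0.80. Over the groups it was −0.49 on the log2 scale (95% interval −1.59 to 0.61; limma adjusted p = 0.993), and it was −0.03 without knockout library 3. Leaving that library out keeps a DM24 library in the wild type only. In the DM22 libraries alone the limma log2 difference of Pmaip1 was −0.34. Lower values in each of the 3 pairs were found for 3 members, Pmaip1, Mcl1 and Bcl2l1, and for 17.3% of all genes.

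Bbc3, Bmf and Bid had no shared direction across the pairs. Bbc3, which encodes the p53 target PUMA, had 411, 354 and 190 normalized counts in knockout and 288, 440 and 202 in wild type, and its pair differences of 0.51, −0.31 and −0.09 changed sign. Bmf, a BH3-only gene known for responses to loss of cell attachment, had 335, 347 and 188 in knockout and 279, 353 and 285 in wild type, with knockout library 3 the lowest. Bid, whose protein is cleaved by caspase-8 downstream of death receptors, had 374, 314 and 392 in knockout and 487, 232 and 528 in wild type. The wild-type libraries of Bid spanned both the lowest and the highest value of the 6. The limma log2 differences were 0.04 ± 0.39 for Bbc3, −0.12 ± 0.26 for Bmf and −0.12 ± 0.32 for Bid (SE).

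The effectors had small genotype differences. Bax had 816, 875 and 836 normalized counts in knockout and 876, 774 and 939 in wild type, and the knockout values lay inside the wild-type range. Its log2 difference of −0.03 had a 95% interval of −0.26 to 0.20 (limma adjusted p = 0.999). Bak1 had 619, 713 and 984 in knockout and 791, 730 and 897 in wild type, a log2 difference of −0.08 with an interval of −0.53 to 0.36 (limma adjusted p = 0.999). Knockout library 3 had the most Bak1. Of the markers of differentiated keratinocytes it had the most Krt1 (54564 normalized counts, against 6938 to 18834 in the others). It also had the least Lor, another of these markers (44.3, against 84.7 to 222). A link of these markers to Bak1 was not tested.

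**Figure D2:**
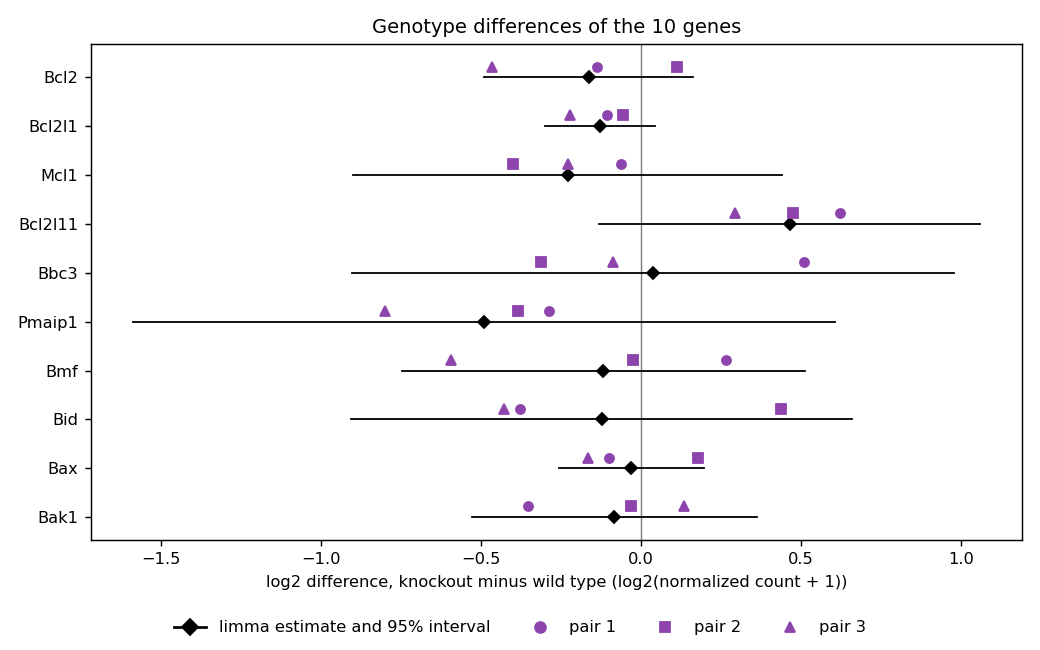
Log2 difference of each gene, knockout minus wild type (x axis, log2(normalized count + 1) scale), as the limma estimate with its 95% interval and as the difference within each same-numbered pair of libraries. All 10 intervals include 0. Bcl2l11 has its 3 pairs above 0, and Mcl1, Bcl2l1 and Pmaip1 have theirs below 0.

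Differences between the code series were larger than those between genotypes for most of the 10 genes, as for most genes. In a limma fit with both terms, 9 of the 10 genes had a larger difference between DM24 and DM22 than between knockout and wild type, and so did 66.8% of all genes. Limma called 4 members lower in DM24 and 0 higher, against 4.07% of all genes called lower and 2.68% called higher (6.75% in all). The 4 were Pmaip1 (−1.16 ± 0.12, SE; limma adjusted p = 0.0120), Bbc3 (−0.91 ± 0.19; 0.0477), Mcl1 (−0.69 ± 0.09; 0.0187) and Bcl2l11 (−0.60 ± 0.10; 0.0319), all as log2 differences. EdgeR called 3 of them, as it did 3.41% of all genes (edgeR adjusted p of Bbc3 = 0.0525). DESeq2 called 5 members, against 8.27% of all genes lower and 6.77% higher, the fifth being Bak1, which was higher by 0.41 (DESeq2 adjusted p = 0.0366). Both DM24 libraries lay below all DM22 libraries for 4 members, as for 20.2% of all genes, and above them for 1, Bak1, as for 19.0%. Jun, which encodes the AP-1 subunit c-JUN and is induced by stress and tissue handling, moved the same way, with 14634 and 26950 normalized counts in the DM24 libraries (knockout and wild type) and 49902 to 90055 in the DM22 libraries. Summed marker lists moved with the series too: of 13 lists, both DM24 libraries lay above all DM22 libraries for 4 and below them for 2. Differentiated keratinocyte markers summed to 103378 and 45749 normalized counts in DM24 (knockout and wild type), against 24848 to 36436 in DM22. Both DM24 libraries lay above all DM22 libraries for 3 of these 6 genes. Sebaceous markers summed to 21156 and 20707 in DM24, against 16566 to 19591 in DM22, with both DM24 libraries above for 4 of the 6 genes. Fibroblast markers summed to 1615 and 3242 in DM24, against 5404 to 9427 in DM22. However, both DM24 libraries lay above all DM22 libraries for 4 of the 7 genes and below for 1. That 1 gene was Dcn, which made up most of the sum, with 1127 and 2193 in DM24 and 5275 to 9253 in DM22. Hedgehog tumour markers summed to 199154 and 203756 in DM24, against 235389 to 280374 in DM22, with both DM24 libraries below for 2 of the 7 genes. The part of Jun and of these cell types in the result was not tested.

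**Figure D3:**
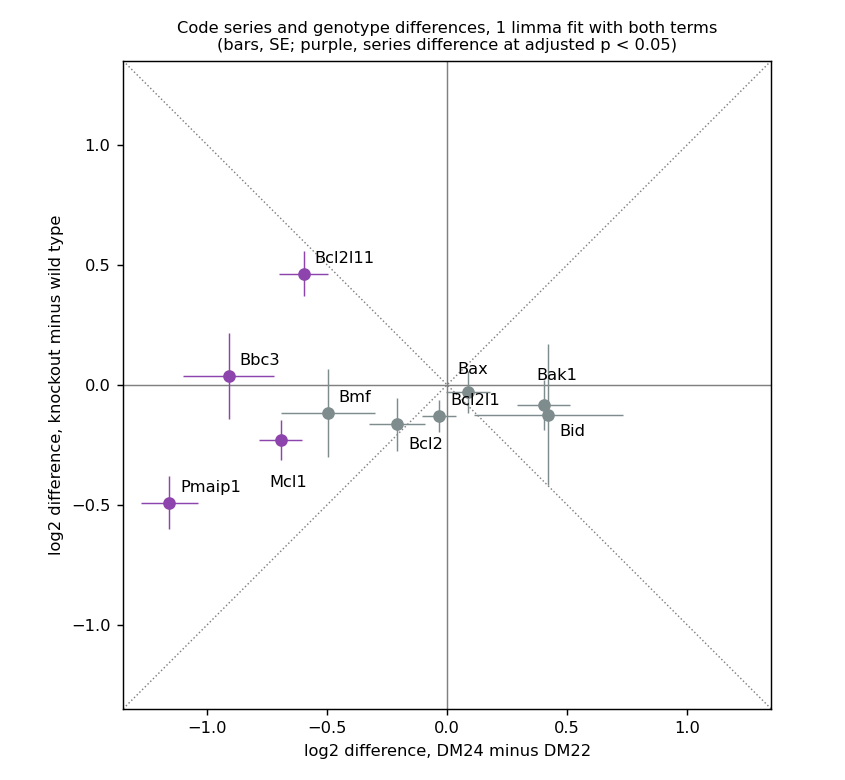
Log2 difference of each gene between the code series (x axis, DM24 minus DM22) and between the genotypes (y axis, knockout minus wild type), from the same limma fit, with standard errors. Dotted lines mark equal size, and purple marks a series difference that passed limma. Bcl2l11 and Pmaip1 lie farthest from 0 on the y axis, on opposite sides, and both lie left of 0.

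With the code series held as a term, Bcl2l11 and Pmaip1 passed DESeq2 and did not pass the other tests. DESeq2 called 1 member higher, Bcl2l11 (0.48 ± 0.13, SE; DESeq2 adjusted p = 0.0218), and 1 lower, Pmaip1 (−0.48 ± 0.13; DESeq2 adjusted p = 0.0197), against 0.761% of all genes called higher and 1.46% lower (2.22% in all). Limma gave an adjusted p of 0.219 for Bcl2l11 and 0.252 for Pmaip1 in that design, and edgeR 0.220 and 0.261, and each called 0% of all genes. Limma had 3 members at an unadjusted p under 0.05 there, against 11.3% of all genes. With the replicate number as a block, the DESeq2 adjusted p was 0.262 for Bcl2l11 and 0.113 for Pmaip1, and 0 members were called, against 1.24% of all genes, with 2 members (these same genes) at an unadjusted p under 0.05, against 6.68% of all genes. In the 4 DM22 libraries alone DESeq2 called Bcl2l11 (0.56, adjusted p = 0.0468; 1.96% of all genes were called and 0.892% called higher) and not Pmaip1 (−0.33, adjusted p = 0.181). Whether these genes passed changed when a DM22 library was left out, while the size of the difference changed little (0.41 to 0.49 for Bcl2l11 and −0.57 to −0.48 for Pmaip1). With the series held, the call of Bcl2l11 was lost without each of the 4 DM22 libraries (DESeq2 adjusted p = 0.0985 to 0.978), and that of Pmaip1 was lost without knockout library 1 or 2 (0.217 and 0.143) and held without wild-type library 1 or 2 (0.0205 and 0.0397). Whether the knockout effect itself differed between the code series was tested by an interaction term, for which limma and DESeq2 called 0 of the 10 members (0% and 0.263% of all genes). At an unadjusted p under 0.05 limma had 2 members, Bcl2 and Pmaip1, against 5.47% of all genes, and DESeq2 had 0, against 3.25%. The lowest limma adjusted p of the interaction was 0.867, shared by Bcl2, Pmaip1, Bmf and Bak1.

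Per length, the 10 genes were led by Mcl1 and Pmaip1 and closed by Bcl2l11 and Bmf. Relatives outside the 10 genes were not ranked, among them Bok, with mean normalized counts of 4302 in knockout and 4378 in wild type. Levels are reads per kilobase of annotated exon, scaled to 1000000 per library, and rest on the GENCODE M21 gene lengths. Mcl1 had a mean level of 388 (lowest library 262, highest 497), Pmaip1 167 (71.4 to 228), Bax 108 (92.0 to 122) and Bak1 65.5 (52.4 to 84.0). Bcl2l1 (36.2), Bcl2 (34.0) and Bbc3 (29.3) followed, then Bid (21.9), Bcl2l11 (12.1) and Bmf (11.3). With these exon lengths, 4 of the 9 neighbours in this order kept it in all 6 libraries: Mcl1 over Pmaip1, Bax over Bak1, Bak1 over Bcl2l1, and Bid over Bcl2l11. Bbc3 was above Bid in 3 of 6 libraries. Bcl2l11 was above Bmf in the 3 knockout libraries (16.67 against 13.02, 16.5 against 13.4 and 10.1 against 7.37). It was below Bmf in the 3 wild-type libraries (10.22 against 10.23, 11.0 against 12.6 and 8.25 against 11.1). This order depended on the lengths used. With lengths of the longest transcript Bcl2l11 was above Bmf in the wild-type libraries as well (12.65 against 8.99, 13.65 against 11.13 and 10.13 against 9.71).

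Summed by role, the 3 anti-apoptotic genes had a level of 435 ± 97.5 in knockout and 482 ± 91.1 in wild type (SD, n = 3 each). The 5 BH3-only genes summed to 224 ± 81.3 in knockout and 259 ± 57.8 in wild type, of which Pmaip1 was the largest part. The 2 effectors summed to 174 ± 17.6 in knockout and 173 ± 25.2 in wild type. Each difference was smaller than the spread between libraries.

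**Figure D4:**
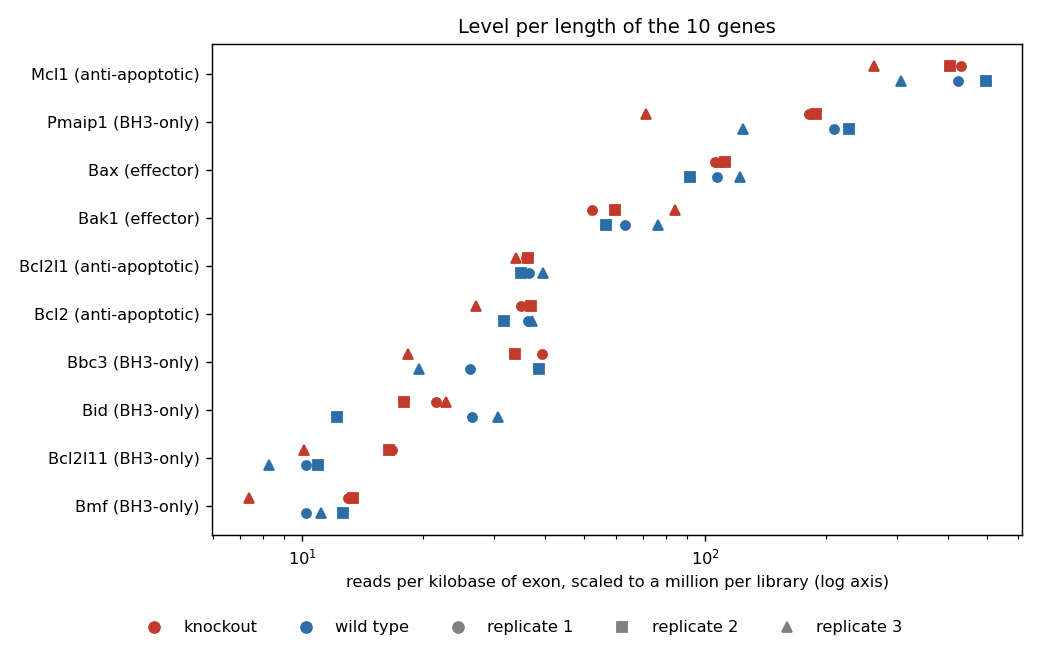
Level per length of the 10 genes (x axis, log scale, reads per kilobase of exon scaled to 1000000 per library) in each knockout and wild-type library, ordered by mean from 388 for Mcl1 to 11.3 for Bmf. Bcl2l11 shows the knockout libraries 1 and 2 to the right of all wild-type libraries.

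The ratio of Bcl2l11 to Mcl1 separated the groups in every library. BIM is bound and held inactive by MCL1. Per length, the ratio was 0.0386, 0.0405 and 0.0386 in knockout libraries 1 to 3, against 0.0240, 0.0221 and 0.0269 in wild-type libraries 1 to 3. The knockout values lay close together, DM24 library included, and all were above the wild-type values. The fold between the geometric means was 1.62, a log2 difference of 0.69, with pair differences of 0.69, 0.88 and 0.52. It ranged from 0.63 to 0.77 when each library was left out in turn. This is a description with no test. Of all genes tested, 3.99% had a ratio to Mcl1 that was higher in all knockout libraries. Of the 21 ratios of a BH3-only or effector gene to an anti-apoptotic gene, 2 were separated, both with Bcl2l11 on top (over Mcl1 and over Bcl2), and 19 overlapped. For Bcl2 as the denominator, 9.25% of all genes had a ratio higher in all knockout libraries.

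The ratio of Bax to Bcl2, a widely used index of the same kind, did not separate the groups. It was 3.02, 3.04 and 4.05 in knockout and 2.94, 2.90 and 3.29 in wild type, and knockout library 3 alone lay above the rest. The log2 difference was 0.13, with pair differences of 0.04, 0.07 and 0.30. It was −0.01 without knockout library 3, which leaves a DM24 library in the wild type only.

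**Figure D5:**
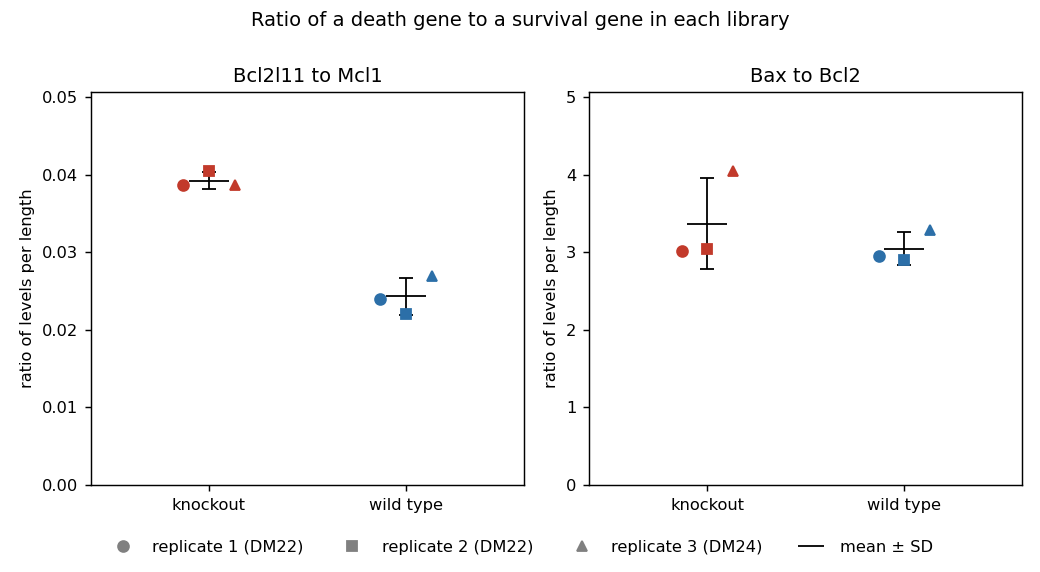
Ratio of levels per length of Bcl2l11 to Mcl1 (left) and Bax to Bcl2 (right) in each knockout and wild-type library, with the mean and SD of the 3 libraries of a group. On the left the knockout libraries sit between 0.0386 and 0.0405, above all wild-type libraries, and on the right the groups overlap.

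Around the 10 genes, few genes of neighbouring functions passed a test of knockout against wild type. That does not show that their levels were alike. Of 84 tested genes in 8 lists of neighbouring functions, limma called 0 (with all genes at 0%), edgeR 0 and DESeq2 0 without a term. With the replicate block DESeq2 called 3 lower and 0 higher, against 0.819% of all genes lower and 0.417% higher. Of 16 tested p53 pathway genes 8 lay above 0 and 8 below, with a median of 0.00. Plk2, a polo-like kinase and p53 target, had 3632, 3218 and 1926 normalized counts in knockout and 6249, 5841 and 3862 in wild type, −0.88 on the log2 scale in limma. With the block its DESeq2 adjusted p was 1.7e-12, while limma and edgeR did not call it (adjusted p = 0.123 in limma and 0.128 in edgeR). Trp53 itself had 3364, 3563 and 2951 in knockout and 3262, 3557 and 3197 in wild type.

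The transcription factors known to act on BH3-only genes had 9 of 12 members below 0, with a median of −0.11, and the other 2 calls with the block. Jun had 51124, 49902 and 14634 normalized counts in knockout and 90055, 84606 and 26950 in wild type (DESeq2 adjusted p = 6.6e-16 with the block). It did not pass limma or edgeR with the block (adjusted p = 0.213 in limma and 0.230 in edgeR). Trp73, which encodes the p53 relative p73, had 3794, 3743 and 3214 in knockout and 4777, 6228 and 4084 in wild type, with no overlap. Its limma estimate was −0.47, and DESeq2 gave it an adjusted p of 0.0417 with the block. Foxo3, a forkhead factor known to induce Bcl2l11, had a limma log2 difference of 0.00.

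In the other 6 lists no member was called for knockout against wild type by limma, edgeR or DESeq2 without a term. DESeq2 with the replicate block or the code series called 0 there as well. Between the code series, limma called Fas lower in DM24 and Birc5 higher (4.07% and 2.68% of all genes). The apoptosome and caspase list had 7 of 12 above 0 (median 0.03), with Cycs, cytochrome c, at −0.27 and Dffb, the caspase-activated DNase, at 0.18. The inhibitor of apoptosis list had 5 of 7 above 0 (median 0.04), with Birc3 at −0.40 and Birc5, which encodes survivin, at −0.27. The death receptor list had 6 of 9 below 0 (median −0.03), with the receptor gene Fas at −0.29 and the kinase gene Ripk1 at 0.15. The list of enzymes that act on MCL1 and BIM turnover had 5 of 9 above 0 (median 0.01), with the ubiquitin ligase subunit gene Fbxw7 at −0.08. The list of mitochondrial outer membrane and dynamics genes had 6 of 9 below 0 (median −0.04), with the fission factor gene Mff at −0.11 and the fusion gene Mfn2 at 0.09. Of 15 listed relatives in the wider BCL2 family 10 passed the filter and had 6 above 0 (median 0.02), with Bcl2l15 at −0.69 and the mitophagy receptor gene Bnip3l at −0.25. All of these values are limma log2 differences of knockout against wild type that did not pass.

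The genes whose profile over the 6 libraries lay nearest to each member were found by the root mean square distance of centred log2 values. For Bcl2l11 they were Slc4a9 (0.09) and Glb1l2 (0.10), and for Mcl1 they were Kbtbd7 (0.04) and Ppap2b (0.06). For Pmaip1, Mn1 is given (0.11). Bcl2 lay nearest to the receptor kinase gene Mertk (0.02) and Mmd (0.03), Bcl2l1 to Trappc6b (0.02) and BC002230 (0.03), and Bax to Ppp4r2 (0.02) and Xpr1 (0.02). Bbc3 lay nearest to Pygo1 (0.06) and Lmo1 (0.08), Bmf to Zfp703 (0.06) and Ngfr (0.07), Bid to Sulf2 (0.10) and Dlgap1 (0.13), and Bak1 to Dmkn (0.03) and Chchd4 (0.04). The 6 libraries share their genotype and series differences across all of these genes, so the distances are a description.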

How the data were processed

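RNA was measured in 6 libraries, 3 knockout and 3 wild type. The TruSeq RNA kit used on total RNA, per the labels, does not mark strand. STAR 2.5, DESeq2 1.18.1 and the build mm10 (GRCm38) are named, with no role, per the submitters' processing notes. The counting tool and annotation are not given in the sources used here. The authors deposited a signal of reads divided by 1 size factor per library: all values (100%) came out as whole reads after division by 1 step per library (tolerance 0.001 reads), giving 15405490 to 25260431 reads per library. Each member had 149 to 9474 reads in a library, which bounds counting error alone.

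All genes passing the filter (mean 10 or more) were tested with limma 3.58.1 (R 4.3.3; trend, robust) on log2(normalized count + 1), two-sided, adjusted by Benjamini-Hochberg at 0.05. EdgeR 4.0.16 and DESeq2 1.42.0 on the recovered reads were alternatives and called 0 and 67 genes. The fits were tested on simulated data. Other alternatives were the replicate block, the code series as a term, pseudocounts, filters, scalings and left-out libraries. The series difference itself was fitted after the data were seen. The labels do not say whether each library is a separate animal, so the p-values reflect library-to-library spread, which may be technical. Deviations from the group means correlated by 0.333, 0.327 and 0.694 between libraries of the same number, which was taken as pairing, although the correlation of knockout 1 with wild type 2 was higher (0.505).

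Levels per length used exon lengths of GENCODE M21 (GRCm38), matched by symbol for 20892 genes with 93.7% of reads. Without strand, reads from exon bases shared with a gene on the other strand cannot be told apart. Such bases were 628 of 3550 of Bid in Bcl2l13, 437 of 2407 of Bak1 in Ggnbp1 and 558 of 9157 of Bcl2 in an antisense RNA. For Bax, 192 of 1576 bases lie in Gm45808 on the same strand, where strand would not tell the reads apart either. Promoter sequences are from RefSeq (GRCm38.p6).

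The members and lists were chosen with earlier results of these data known. Named genes are Yap1, the 10 members, per list up to 3 genes past DESeq2 with the block or else the 2 with the largest limma difference at a mean of at least 50, and the 2 nearest profiles per member; 2 genes that this rule names are not reported here. Trp53, Foxo3 and the cell markers were named besides, after their values were seen.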

Additional observations from a re-analysis of the deposited data

Results flagged for a closer look

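Bak1 was noted because both DM22 pairs lay on 1 side of 0 and the DM24 pair on the other: its knockout difference was 0.13 on the log2 scale in the DM24 pair and −0.35 and −0.03 in the DM22 pairs. The effect was 0.33 higher in DM24 than in DM22, and the interaction did not pass (limma adjusted p = 0.867). With 1 library of each genotype in DM24, the spread comes from the DM22 libraries. For Bmf, whose DM22 pairs differed in sign (0.26 and −0.03) and whose DM24 pair was at −0.59, the same difference between the series was larger, −0.71, and did not pass either (limma adjusted p = 0.867).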

How the results depend on the processing

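Over 32 alternatives per member, 286 of 320 values kept the direction and the side of the threshold, 5 came past it and 29 turned sign. Bcl2, Bcl2l1, Bcl2l11 and Pmaip1 turned under none of the 32. All genes called numbered 67 with DESeq2, 169 with DESeq2 and the replicate block, 303 with DESeq2 and the code series, and 2 and 268 in the DM22 libraries alone (limma and DESeq2). With 1 library left out they ranged from 0 to 1 with limma, from 23 to 235 with DESeq2, and from 85 to 500 with DESeq2 and the series (chosen after seeing the data). Members called numbered 2 with DESeq2 and the series and 1 in the DM22 libraries alone (DESeq2), and 0 to 1 with a library left out. The replicate block changed no call of a member in limma, edgeR or DESeq2. In the DM22 libraries alone limma and DESeq2 turned Bmf to 0.12 (both tools) and Bax to 0.038 (limma) and 0.044 (DESeq2), and limma turned Bid to 0.028. With 1 library left out the log2 differences ranged from −0.24 to 0.38 for Bbc3, from −0.27 to 0.17 for Bmf, from −0.50 to 0.13 for Bid, from −0.11 to 0.038 for Bax, from −0.27 to 0.076 for Bak1 and from −0.46 to 0.00064 for Mcl1. Bcl2l11 ranged from 0.31 to 0.71 and Pmaip1 from −0.80 to −0.03. A left-out library made the code series uneven between the groups in fits without the series, and the cause of the moves was not tested. Lengths of the longest transcript in place of all exons gave mean levels of 301 for Mcl1, 120 for Bax, 51.1 for Bak1 and 50.1 for Bcl2l1. The order of the 10 means was the same, but the order within libraries was not. With these lengths Bak1 was below Bcl2l1 in knockout libraries 1 and 2 (40.9 against 49.6 and 46.8 against 50.3). The same held in wild-type libraries 1 and 2 (49.5 against 50.6 and 44.7 against 48.8). The ratio of Bax to Bcl2 ranged from −0.01 to 0.21 on the log2 scale with a library left out.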

Other observations

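Further BCL2 relatives outside the 10 genes gave values of interest, picked after they were seen. Bcl2l2, which encodes the anti-apoptotic BCL-w, had 1810, 1903 and 1769 normalized counts in knockout libraries 1 to 3 and 1549, 1760 and 1701 in wild-type libraries 1 to 3. The groups did not overlap, as for 11.0% of all genes in either direction, and the limma log2 difference was 0.13 (adjusted p = 0.946). Bik, a BH3-only gene at the low end of the table, had 31.2, 33.0 and 8.85 in knockout and 9.25, 17.2 and 5.20 in wild type. Its pair differences of 1.65, 0.90 and 0.67 all lay above 0, as for 15.3% of all genes, and the limma log2 difference of 1.07 did not pass (adjusted p = 0.961). Both DM24 libraries were the lowest of their group for Bik, as for Bcl2l11.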
